A study of Mus musculus with 24 samples.

Results

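Neurotransmitter receptor subunits are the proteins that assemble into receptors for acetylcholine, GABA, glycine and glutamate, and their genes were followed across 8 groups of mouse cells on Affymetrix arrays. Members were chosen by gene symbol alone, as AMPA (Gria), kainate (Grik), NMDA (Grin) and metabotropic (Grm) glutamate receptor genes, GABA A (Gabr) and GABA B (Gabbr) genes, glycine receptor genes (Glra and Glrb) and neuronal nicotinic acetylcholine receptor genes (Chrna and Chrnb without the muscle subunits). The symbols gave 52 of the 18193 genes measured, each read from the probe set with the highest mean signal over all arrays. They comprised 10 neuronal nicotinic, 15 GABA A, 1 GABA B, 5 glycine, 4 AMPA, 5 kainate, 6 NMDA and 6 metabotropic glutamate receptor genes, and 34 of them had more than 1 probe set.

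The series held 24 arrays, 3 per group, from P19 cells, a mouse embryonal carcinoma line, and from mouse embryonic fibroblasts (MEFs) of Myod-/-/Myf5-/- mice, a genotype that every MEF group shared, controls included. The groups were P19 cells with a NeuroD2 lentivirus and their untransduced controls (batch 3), P19 cells with a MyoD lentivirus and their untransduced controls (batch 1), MEFs labelled as transduced with NeuroD2 and their untransduced controls (batch 2), and MEFs with MyoD and their untransduced controls (batch 1). Virus was added with polybrene at 8 µg/ml and the medium was renewed after 24 hours. P19 cells with a factor were collected at 72 hours. MEFs with MyoD went into low-serum differentiation medium at 48 hours and were collected 36 to 40 hours later. For the MEFs labelled NeuroD2 and for the controls, neither a harvest time nor a differentiation medium is given. NeuroD2 is a basic helix-loop-helix factor of neurons and MyoD is its relative in skeletal muscle. No group received an empty virus, so virus and factor cannot be told apart, nor can differentiation medium and MyoD in MEFs. Whether the 3 replicates of a group came from separate cultures is not given, so p-values measure only the spread between these samples, which may be technical.

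Nicotinic, GABA A, glycine, AMPA, kainate and NMDA receptors are ion channels built from several subunits around a pore, while GABA B and metabotropic glutamate receptors act through G proteins. Which subunits a cell transcribes sets the transmitter it can answer and the pharmacology of the answer. Neuronal nicotinic receptors with alpha3 and beta4 subunits are known from autonomic ganglia and the medial habenula, alpha4 and beta2 from most of the brain, whereas muscle uses its own nicotinic set at the neuromuscular junction.

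Signals are log2 values as deposited, and a difference of 1 is a 2-fold change. The table had no detection calls, so the 95th percentile of 71 olfactory and vomeronasal receptor genes, genes of the nose, was computed in each group as a description of low signal. It lay between 5.38 and 5.65. Between 13 and 19 of the 52 members (25% to 36.5%) exceeded it in a group, against 66.8% to 68.9% of all genes. Of the members, 26 exceeded it in no group and 10 in all 8 groups; of the 15 GABA A genes 12 exceeded it in none. One array, P19 control replicate 2 of batch 1, is called the array apart here: its quartiles were 4.79 and 7.63, where the other 23 arrays had 4.47 to 4.58 and 8.23 to 8.40. There 15 of the 52 members read more than 1 log2 unit away from the mean of the other arrays of its group, 10 above and 5 below. The median absolute deviation from that mean was 0.58 for the members and 0.74 for all genes. Results are therefore also given without the array apart where it moves a count or a call. The transduced genes were read as a check of the labels: Myod1 averaged 9.66 ± 0.082 in P19 cells with MyoD against 5.72 ± 0.288 in controls, and 12.73 ± 0.107 in MEFs with MyoD against 7.18 ± 0.035 (SD, n = 3 each). Another Myod1 probe set differed by only 0.10 and 0.06 in these comparisons. Neurod2 averaged 7.68 ± 0.423 in P19 cells with NeuroD2 against 5.98 ± 0.13 in controls on 1 of its 3 probe sets. The others differed there by 0.21 and 0.08. In the MEFs labelled NeuroD2 the 3 probe sets differed from controls by -0.06, 0.21 and -0.12, so no rise of Neurod2 RNA was measured there, and every direction given for that group rests on the label.

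NeuroD2 in P19 cells was accompanied by higher signals of nicotinic subunit genes and of Gabbr1. Chrnb4, the beta4 subunit of ganglionic nicotinic receptors, read 6.99, 8.12 and 7.84 in P19 cells with NeuroD2, against 4.42, 4.62 and 4.71 in their controls. The groups were far apart, and controls lay below the olfactory percentile of 5.46. The difference was 3.07 ± 0.19 (log2, limma SE, n = 3 per group), an 8.39-fold rise (limma adjusted p = 4.13e-10). Here and below, the SE rests on a spread pooled over all groups in the fit, not on the compared groups alone. The SD of Chrnb4 was 0.59 in P19 cells with NeuroD2 and 0.15 in their controls. Among all groups other than P19 cells with NeuroD2 it ranged from 0.03 to 0.23. The pooled SE therefore does not show the wider spread with NeuroD2. A second Chrnb4 probe set rose by 0.99 (adjusted p = 5.46e-06). Chrna3, the alpha3 subunit that pairs with beta4, read 5.76, 5.82 and 5.47 with NeuroD2, against 4.70, 4.43 and 4.42 in controls. Its groups did not overlap either, and it rose by 1.17 ± 0.28 (adjusted p = 0.0109). That call ended against the P19 controls of batch 1 (0.53, adjusted p = 0.154) and without NeuroD2 replicate 2 (1.10, adjusted p = 0.0551). Those controls of batch 1 read 4.51, 6.28 and 4.68, with 6.28 on the array apart. Of the other Chrna3 probe sets, 1 rose by 0.94 (adjusted p = 3.13e-04) and 1 differed by 0.09 (adjusted p = 0.894). Chrna5, an accessory alpha5 subunit of such receptors, read 6.06, 7.08 and 7.11 with NeuroD2, against 6.58, 5.30 and 4.93 in controls. These groups overlapped, since control replicate 1 exceeded 1 of the NeuroD2 arrays, and the rise of 1.15 ± 0.29 (adjusted p = 0.0156) did not pass in 6 of 33 other settings, with an adjusted p of up to 0.217.

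Chrnb4, Chrna3 and Chrna5 are neighbours on chromosome 9 in the RefSeq gene table, in the order Chrna5, Chrna3, Chrnb4. Chrna5 starts 45074 bases from Chrna3, and Chrnb4 starts 21982 bases from it. Their promoter windows are shown because these are the adjacent members that rose together. Each holds 250 bases before and 50 after an annotated start (RefSeq, GRCm38.p6), printed 5′ to 3′ on the strand of the gene, with capitals for the E-box CAGCTG, a letter sequence that basic helix-loop-helix factors can bind. The Chrnb4 window is chr9:55048495-55048794 on the minus strand, that of Chrna3 is chr9:55026513-55026812 on the minus strand, and that of Chrna5 is chr9:54981238-54981537 on the plus strand, at whichever of its annotated starts lies nearer to Chrna3.
Chrnb4: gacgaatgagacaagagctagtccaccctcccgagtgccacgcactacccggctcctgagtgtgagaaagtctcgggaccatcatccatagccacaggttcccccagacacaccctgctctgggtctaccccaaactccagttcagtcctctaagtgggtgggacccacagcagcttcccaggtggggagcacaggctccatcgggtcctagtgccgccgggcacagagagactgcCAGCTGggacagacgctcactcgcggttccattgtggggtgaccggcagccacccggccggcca
Chrna3: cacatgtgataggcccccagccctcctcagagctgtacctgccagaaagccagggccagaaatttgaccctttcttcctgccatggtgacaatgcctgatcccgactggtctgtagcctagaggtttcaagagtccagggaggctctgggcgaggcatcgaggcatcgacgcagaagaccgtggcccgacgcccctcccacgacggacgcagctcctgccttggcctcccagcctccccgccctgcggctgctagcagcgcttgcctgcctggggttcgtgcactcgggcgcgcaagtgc
Chrna5: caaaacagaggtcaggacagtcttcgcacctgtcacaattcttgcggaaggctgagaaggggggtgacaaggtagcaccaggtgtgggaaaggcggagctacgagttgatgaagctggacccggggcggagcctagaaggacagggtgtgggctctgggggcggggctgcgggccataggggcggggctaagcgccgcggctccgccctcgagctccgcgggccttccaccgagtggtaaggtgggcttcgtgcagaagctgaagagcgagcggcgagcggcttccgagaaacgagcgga
The Chrnb4 window held 1 CAGCTG, with its first base at position -14 from the start. The Chrna3 and Chrna5 windows held none, and no window of the 3 held the related E-box CAGATG. Both strands were searched, CAGCTG reads the same on either, and a match to one motif is never a match to the other. Over the 47 windows of the 39 members with promoter sequence, 4 held CAGCTG (8.51%) and 3 held CAGATG (6.38%). Among all 32851 promoter windows of that length, 16.3% held CAGCTG and 17.15% held CAGATG. A match of letters is a description and not a binding site.

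**Figure D1:**
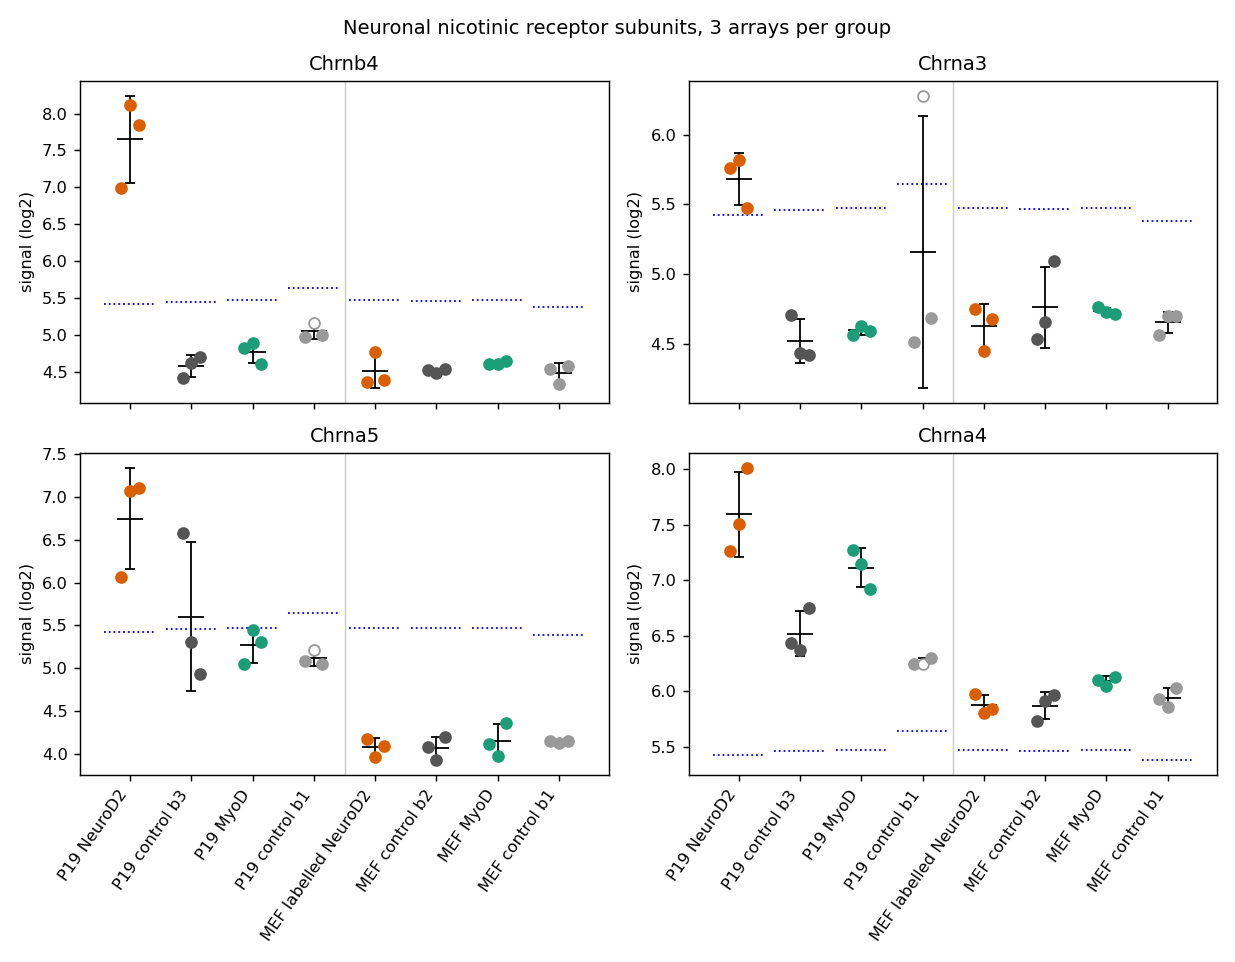
Signal (log2) of Chrnb4, Chrna3, Chrna5 and Chrna4 in each array of the 8 groups, with P19 cells left and MEFs right of the grey line; bars are the mean and SD of 3 arrays, the dotted line is the olfactory 95th percentile of the group, and the open point is P19 control replicate 2 of batch 1. Chrnb4 in P19 cells with NeuroD2 lies between 6.99 and 8.12 and every other array lies at or below 5.17.

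Chrna4, the alpha4 subunit of the main brain nicotinic receptor, also rose in P19 cells with NeuroD2. It read 7.26, 7.50 and 8.01, against 6.43, 6.37 and 6.75 in controls, without overlap, and the difference was 1.07 ± 0.15 (limma adjusted p = 3.15e-05). Its other probe sets differed by 0.89 (adjusted p = 0.0521) and -0.32 (adjusted p = 0.305). Chrnb2, the beta2 partner of alpha4, read 5.73, 5.62 and 5.65, against 5.18, 5.49 and 5.33. Its difference of 0.34 did not pass with all arrays (adjusted p = 0.162) and did without the array apart (adjusted p = 0.0265), and another of its probe sets rose by 1.18 (adjusted p = 1.69e-05). Chrna7, the alpha7 subunit of homomeric receptors, differed by 0.16 (adjusted p = 0.934), and Chrna2, Chrna6, Chrna9 and Chrnb3 did not pass.

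Gabbr1, the ligand-binding subunit of the GABA B receptor, read 8.27, 8.86 and 8.71 in P19 cells with NeuroD2, against 6.68, 6.92 and 7.38 in controls. The groups were separate, and the rise was 1.62 ± 0.16, or 3.07-fold (limma adjusted p = 4.55e-07). Gabrg1, a gamma subunit of GABA A receptors, read 3.93, 4.29 and 3.84 with NeuroD2, against 4.97, 5.08 and 5.14 in controls. It was lower by -1.05 ± 0.18 (adjusted p = 3.72e-04), but all 6 readings lay below the olfactory percentile, and the P19 controls of batch 1 averaged 4.23. Measured against those, which read 4.70, 3.67 and 4.32 with 3.67 on the array apart, its adjusted p was 0.36. In all, 5 members rose in P19 cells with NeuroD2 (9.62%, against 5.1% of all genes) and 1 fell (1.92%, against 3.24%). Without the array apart 7 rose, against 10.9% of all genes, and 1 fell, against 11.2%; Chrnb2 and Grik4, a kainate receptor subunit (0.29, adjusted p = 0.0195), were added. The median difference of the members was -0.04, against -0.05 for all genes. Of the 4 AMPA, 5 kainate, 6 NMDA, 6 metabotropic and 5 glycine receptor genes none passed with all arrays, and their differences lay between -0.26 and 0.31.

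Genes that make and carry transmitter and that mark neurons moved in the same cells. All 11 neuron markers rose in P19 cells with NeuroD2 (median 2.62; array means 9.88 to 10.55, against 7.43 to 7.93 in controls, with no marker below 8.31 in the mean with NeuroD2). Of 14 genes of transmitter synthesis and transport, 5 rose and 1 fell: Slc17a6 and Slc17a7, vesicular glutamate transporters, by 3.44 and 1.21 (limma adjusted p = 1.08e-08 and 3.23e-07), Slc18a3, the vesicular acetylcholine transporter, by 0.86, Ache, which degrades acetylcholine, by 1.26 and Slc1a2, a glutamate uptake carrier, by 0.64, while Slc1a3, another such carrier, fell by 0.58. Of 33 auxiliary subunits and scaffolds, 5 rose, among them Cacng4 (1.60) and Cnih2 (1.21), which bind AMPA receptors, and 2 fell, or 10 and 5 without the array apart. Of 10 other receptor genes, P2rx3, an ATP-gated channel of sensory neurons, rose by 1.85 and P2rx4 fell by 1.20. Of 6 glial markers 3 rose (Mbp, Olig1 and Olig2; array means up to 6.31, against up to 5.34, without overlap), of 7 fibroblast markers 2 fell, of 8 muscle markers 1 rose, and of 5 pluripotent cell markers none passed. In bulk samples fewer cells of a type and less RNA per cell cannot be told apart, and the part of these other genes in the receptor results was not tested.

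In MEFs labelled NeuroD2, members other than Chrnb4 rose. Chrnb4 read 4.37, 4.78 and 4.40, against 4.53, 4.49 and 4.54 in the MEF controls of batch 2. The groups overlapped, and the difference was -0.004 ± 0.19, with a 95% interval from -0.40 to 0.39 (limma adjusted p = 0.997). Chrna3 and Chrna5 differed by -0.14 and 0.006. Gabrb1, a beta subunit of GABA A receptors, read 7.85, 7.85 and 7.63 in MEFs labelled NeuroD2, against 6.19, 5.81 and 5.89 in controls. Its groups were well separated, the rise was 1.82 ± 0.13, or 3.52-fold (adjusted p = 1.19e-09), and a second probe set rose by 1.21 (adjusted p = 3.2e-06), while 2 others differed by 0.24 and -0.01. Gabra4, an alpha subunit of GABA A receptors, read 5.56, 5.65 and 5.50, against 4.50, 4.14 and 4.19. It rose by 1.29 ± 0.33 (adjusted p = 0.0108) to just above the olfactory percentile of 5.47; its other probe set differed by 0.32 (adjusted p = 0.131).

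Chrna7 read 6.85, 6.90 and 6.81 in MEFs labelled NeuroD2, against 5.25, 5.57 and 4.86 in controls. The groups did not overlap, and the rise was 1.63 ± 0.36 (limma adjusted p = 0.003), though its other probe set differed by 0.14 (adjusted p = 0.703). Gabbr1 read 9.12, 8.99 and 9.06, against 8.10, 8.33 and 8.10, a rise of 0.88 ± 0.16 (adjusted p = 5.28e-04). That call depended on the controls: those of batch 1 averaged 8.94, and against them the difference was 0.12 (adjusted p = 0.794). The calls of Gabrb1, Gabra4 and Chrna7 held against either set of MEF controls. In all, 4 members rose (7.69%, against 6.41% of all genes) and 0 fell, against 5.94% of all genes. At an unadjusted p under 0.05 limma marked 5 members in either direction. The share of all genes at that cutoff is not given here, so nothing is read from this count. Without the array apart 4 rose, against 13.8%, and 1 fell, against 13.3%: Chrna9, a nicotinic subunit known from hair cells (-0.32, adjusted p = 0.0228). The median difference of the members was 0.009, against -0.02 for all genes. Besides the probe sets read for the members, another of Grik1, a kainate subunit, rose by 0.48 (limma adjusted p = 0.00354). Another of Grm7, a metabotropic receptor, rose by 0.42 (adjusted p = 0.0397). Of 11 neuron markers Tubb3 rose by 1.83 and Nefm fell by 0.97, with array means of 5.36 to 5.43 against 5.12 to 5.27. Of 33 auxiliary subunits and scaffolds 3 rose, Shank3 (1.18) and Dlg3 (0.69), scaffolds of excitatory synapses, and Rapsn, which clusters muscle nicotinic receptors (0.69), and 1 fell, Pick1, which binds AMPA receptors (-0.70); without the array apart 6 rose and 2 fell. Of 14 transmitter genes Slc1a3 rose by 1.20, and of 10 other receptor genes P2rx3 fell by 1.55 (2 fell without the array apart). Of 6 glial markers 1, Mbp, fell by 1.75, and of the 8 muscle, 5 pluripotent cell and 7 fibroblast markers none passed. The fibroblast array means were 13.46 to 13.53 in MEFs labelled NeuroD2, against 13.63 to 13.66 in controls, without overlap. The part of these markers in the receptor results was not tested.

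Gabra4 and Gabrb1 are neighbours on chromosome 5. Their windows are shown because their annotated starts lie 387 bases apart on opposite strands. The Gabrb1 window, at the nearer of its annotated starts, is chr5:71657671-71657970 on the plus strand, and the Gabra4 window is chr5:71658259-71658558 on the minus strand (RefSeq, GRCm38.p6).
Gabrb1: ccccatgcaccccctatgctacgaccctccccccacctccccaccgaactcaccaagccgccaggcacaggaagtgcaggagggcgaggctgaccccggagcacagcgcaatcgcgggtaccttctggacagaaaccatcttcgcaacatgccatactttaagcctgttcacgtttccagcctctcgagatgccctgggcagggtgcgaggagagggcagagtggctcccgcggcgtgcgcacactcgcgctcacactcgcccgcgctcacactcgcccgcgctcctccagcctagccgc
Gabra4: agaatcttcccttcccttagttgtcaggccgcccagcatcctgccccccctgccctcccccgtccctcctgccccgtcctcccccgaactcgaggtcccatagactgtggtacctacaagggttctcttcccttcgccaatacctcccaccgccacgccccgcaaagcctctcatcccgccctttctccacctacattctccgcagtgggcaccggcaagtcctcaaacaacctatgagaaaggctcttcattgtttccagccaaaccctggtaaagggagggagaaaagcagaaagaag
Neither window held CAGCTG or CAGATG, so neither has capitals. Both genes rose in MEFs labelled NeuroD2. In MEFs with MyoD, Gabrb1 fell and Gabra4 differed by 0.14 (limma adjusted p = 0.885).

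**Figure D2:**
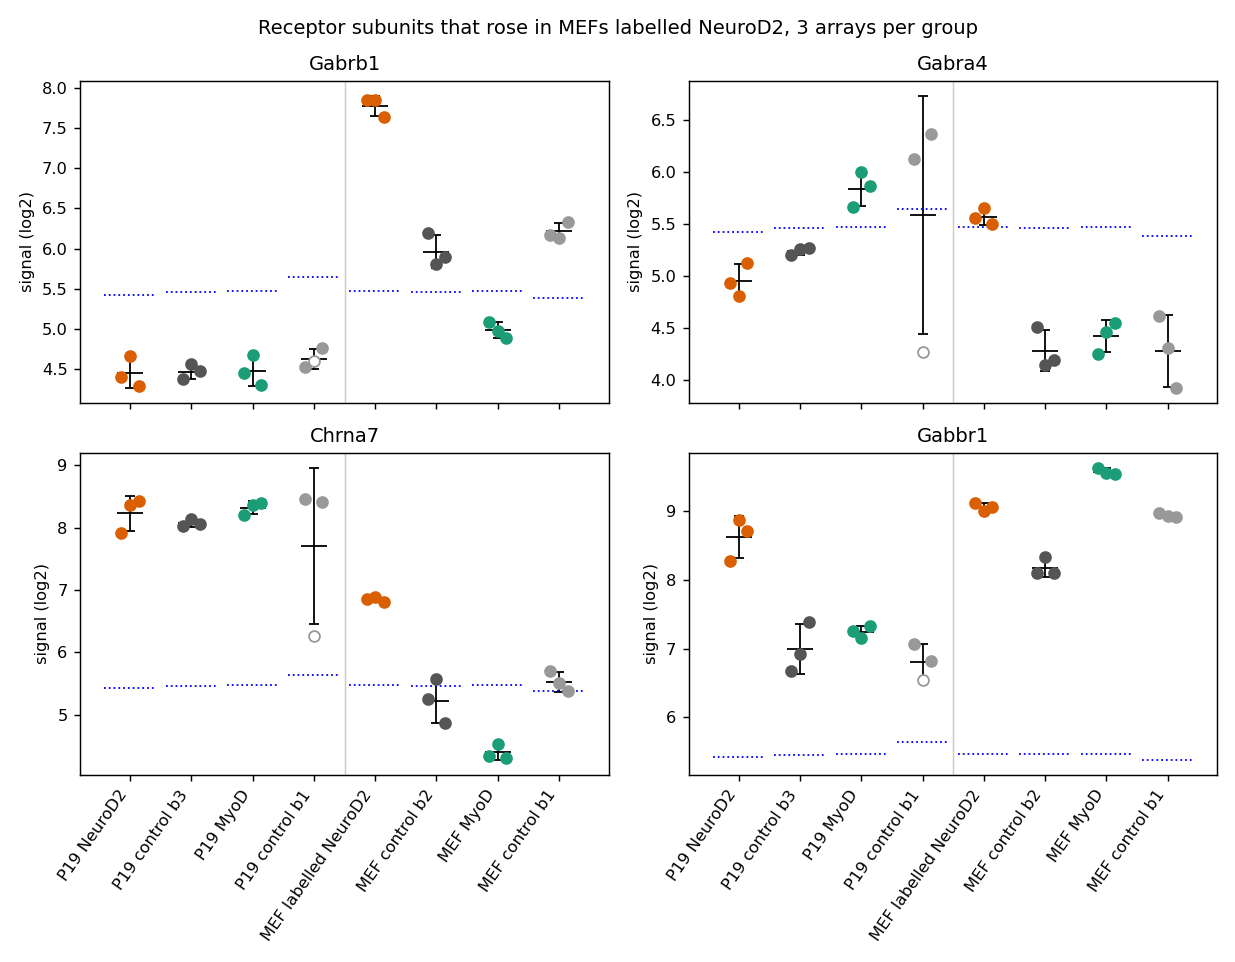
Signal (log2) of Gabrb1, Gabra4, Chrna7 and Gabbr1 in each array of the 8 groups, drawn with the mean and SD of 3 arrays, the olfactory 95th percentile as a dotted line and P19 control replicate 2 of batch 1 as an open point. Gabrb1 lies between 7.63 and 7.85 in MEFs labelled NeuroD2 and between 5.81 and 6.19 in their controls; Gabbr1 differs between the MEF controls of batch 2 and batch 1 (means 8.18 and 8.94).

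With MyoD in MEFs 6 members fell (11.5%, against 14.5% of all genes). Gria3, an AMPA receptor subunit, read 7.56, 7.49 and 7.42 in MEFs with MyoD, against 9.13, 8.81 and 8.91 in controls. The groups were 1 log2 unit or more apart, and it fell by 1.46 ± 0.36 (limma adjusted p = 0.00397); a second probe set fell by 1.47 (adjusted p = 6.03e-07). Against the MEF controls of batch 2, which averaged 8.25, the adjusted p of the first was 0.132. The SDs of that first probe set were 0.07 in MEFs with MyoD and 0.16 in their controls. In the P19 groups, which enter the same SE, they ranged from 0.09 to 0.83. Gabrb1 read 5.09, 4.98 and 4.89 with MyoD, against 6.17, 6.13 and 6.34. It fell by 1.23 ± 0.13 (adjusted p = 1.65e-07) to below the olfactory percentile of 5.47. In the other settings its difference ranged from -1.29 to -0.435, and its other probe sets are not given for this comparison. Chrna7 read 4.35, 4.54 and 4.31, against 5.70, 5.51 and 5.37. It fell by 1.13 ± 0.36 (adjusted p = 0.0228), but that call ended against the MEF controls of batch 2 (adjusted p = 0.093) and in 4 of the fits that leave out 1 array, and its other probe set differed by -0.01 (adjusted p = 0.985). The SDs of Chrna7 were 0.12 in MEFs with MyoD and 0.16 in their controls. In the P19 groups, which enter the same SE, they ranged from 0.06 to 1.26, the latter in the group with the array apart. Grm8, an inhibitory metabotropic glutamate receptor, read 4.98, 5.13 and 5.18, against 5.95, 5.73 and 5.74, and fell by 0.72 ± 0.15 (adjusted p = 9.25e-04).

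The other called members of this comparison moved little. Gabre, a GABA A receptor subunit, read 4.70, 4.56 and 4.50 with MyoD, against 4.84, 5.09 and 4.91, and Grm7, a metabotropic receptor, 4.64 to 4.73, against 4.99 to 5.09. Both fell, by 0.37 and 0.34 (limma adjusted p = 0.0308 and 0.0385), with every reading below the olfactory percentile. Gabbr1 rose: it read 9.63, 9.55 and 9.53, against 8.97, 8.93 and 8.91, a difference of 0.63 ± 0.16 (adjusted p = 0.00525). Gria2, the AMPA subunit that sets calcium permeability, read 5.44, 5.54 and 5.46, against 5.22, 5.17 and 5.13, and rose by 0.31 (adjusted p = 0.0316). The calls of Gabre, Grm7 and Gria2 ended in 7, 9 and 9 of 33, 33 and 34 other settings. In all, 2 members rose (3.85%, against 10.8% of all genes) and 6 fell (11.5%, against 14.5%). Without the array apart 3 rose, against 18.1%, and 7 fell, against 22.5%; the added calls were Grin3a, an NMDA subunit (0.33, adjusted p = 0.00536), and Gabra3, a GABA A subunit (-0.30, adjusted p = 0.0454). Grin3a read 5.27, 5.15 and 5.16, against 4.66, 4.96 and 4.96, and its 2 other probe sets rose by 0.95 and 1.17 (adjusted p = 6.72e-05 and 0.0043).

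The nicotinic subunit genes of muscle rose in MEFs with MyoD. Of the 5 muscle subunits, which the symbol rule leaves out, 4 rose: Chrng, the fetal gamma subunit, by 6.53, Chrnb1 by 5.15, Chrna1, which carries the acetylcholine site, by 4.73, and Chrnd by 3.85 (limma adjusted p at most 5.83e-13). Chrne, the adult epsilon subunit, did not pass. Of the 10 neuronal subunits none rose and 1, Chrna7, fell; the others differed by -0.14 to 0.27. Of 33 auxiliary subunits and scaffolds 3 rose and 5 fell: Rapsn rose by 4.73 and Homer1, a scaffold that binds metabotropic glutamate receptors, by 1.95, while Gabarap, which binds a GABA A receptor subunit, fell by 0.76. Of 14 transmitter genes Slc1a3 fell by 1.47 (2 others rose without the array apart), and of 10 other receptor genes P2rx4 fell by 1.90. All 8 muscle markers rose (array means 12.96 to 13.00, against 5.23 to 5.41), and 5 of 7 fibroblast markers fell (11.50 to 11.66, against 13.38 to 13.50). Of 11 neuron markers Map2 rose by 1.03 and Gap43 fell by 1.61, and of 6 glial markers Mbp fell by 2.11. Their part in the receptor results was not tested.

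**Figure D3:**
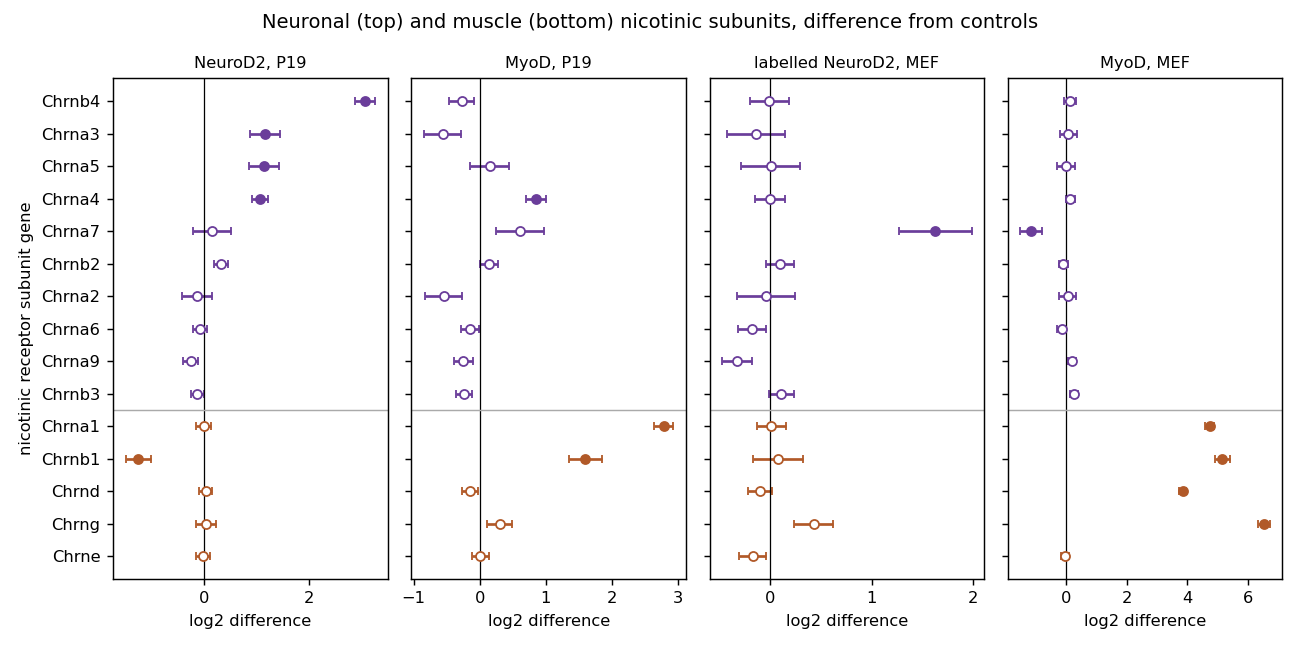
Log2 difference from controls of the same batch, with its standard error, for 10 neuronal (top) and 5 muscle (bottom) nicotinic subunit genes in the 4 factor comparisons; filled points passed at a limma adjusted p under 0.05, and each panel has its own x axis. Chrnb4, Chrna3, Chrna5 and Chrna4 are filled in P19 cells with NeuroD2, and 4 of 5 muscle subunits in MEFs with MyoD.

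MyoD in P19 cells changed 1 member. Chrna4 read 7.27, 7.14 and 6.92 in P19 cells with MyoD, against 6.25, 6.24 and 6.30 in their controls. The groups did not overlap, and it rose by 0.85 ± 0.15, or 1.80-fold (limma adjusted p = 0.00173). Its other probe sets differed by 0.20 and 0.05 (adjusted p = 0.357 and 0.905), and it did not pass when its 3 probe sets were averaged, nor in a fit of only the 6 arrays of this comparison. That 1 member is 1.92%, against 2.03% of all genes, and 0 fell, against 0.676%. At an unadjusted p under 0.05 limma marked 10 members, a count given without the share of all genes at that cutoff and not read further. The counts without the array apart were again 1 (against 2.09%) and 0 (against 1.85%). Chrnb4 read 4.84, 4.89 and 4.61, against 4.98, 5.17 and 5.01, a difference of -0.27 (adjusted p = 0.293), and Chrna3 and Chrna5 differed by -0.56 and 0.15 (adjusted p = 0.177 and 0.708). The Chrna3 difference came with a reading of 6.28 on the array apart, where the other controls read 4.51 and 4.68. Of the muscle subunits, Chrna1 rose by 2.79 and Chrnb1 by 1.60 (adjusted p = 5.42e-11 and 4.82e-04), and 7 of 8 muscle markers rose (array means 8.42 to 8.46, against 6.34 to 6.54). Of 33 auxiliary genes Rapsn rose by 2.69 and Cnih3, which binds AMPA receptors, fell by 0.47, or 2 rose and 2 fell without the array apart; of 14 transmitter and 10 other receptor genes 0 passed, also without the array apart. Of 11 neuron markers Elavl4 rose by 0.89 (adjusted p = 0.0445), and 0 passed without the array apart. Of 6 glial markers Mbp rose by 0.99 and of 5 pluripotent cell markers none passed. Of 7 fibroblast markers 1, Col1a1, fell by 1.33 (adjusted p = 0.0169); their array means were 6.28 to 6.39 with MyoD, against 7.02 to 7.41 in controls, without overlap. The part of these markers in the Chrna4 result was not tested.

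**Figure D4:**
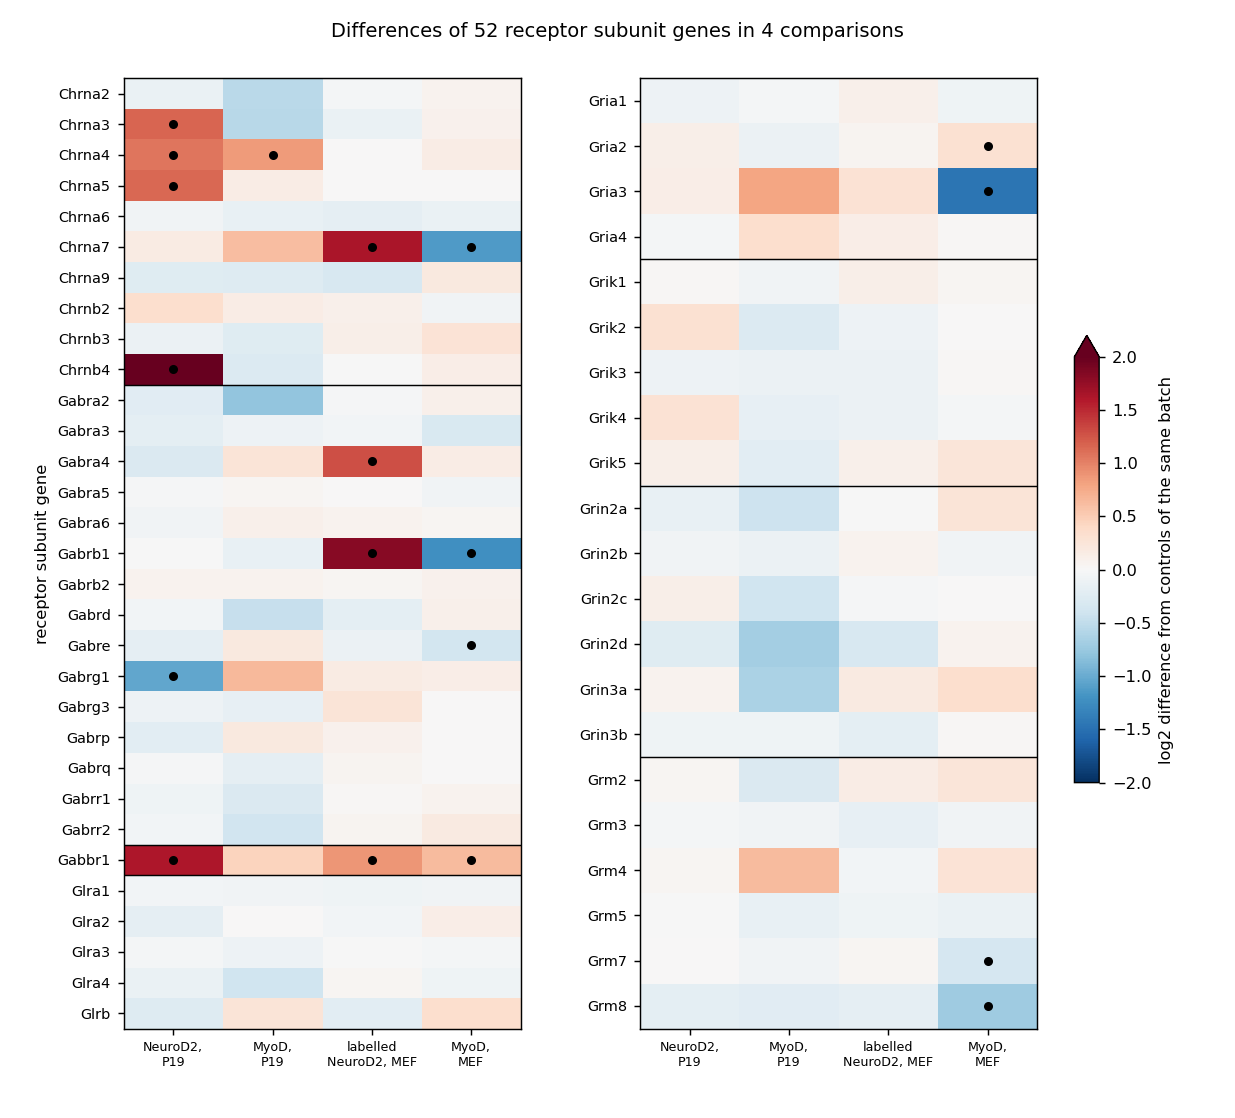
Log2 difference from controls of the same batch for the 52 receptor subunit genes in the 4 factor comparisons, by family; a dot marks a limma adjusted p under 0.05, and the colour scale ends at 2, beyond which only Chrnb4 (3.07) lies. Dots fall on 14 members, and Gabbr1 carries 3 of them.

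Before any factor was added, 6 members were higher in MEFs than in P19 cells (11.5%, against 24.8% of all genes) and 17 were lower (32.7%, against 26.9%). In batch 1, Gria3 read 9.13, 8.81 and 8.91 in MEF controls, against 6.28, 4.87 and 6.34 in P19 controls, a difference of 3.12 ± 0.36 (limma adjusted p = 2.87e-07). Gabbr1 read 8.97, 8.93 and 8.91 in MEFs, against 7.07, 6.54 and 6.81, a difference of 2.13 ± 0.16 (adjusted p = 5.56e-10). Gabrb1 read 6.17, 6.13 and 6.34 in MEFs, against 4.53, 4.60 and 4.76, and was higher by 1.58 ± 0.13 (adjusted p = 1.4e-09). All 3 genes were separated between the cells in every array. Glrb, the beta subunit that anchors glycine receptors, Grm8 and Gabre were higher in MEFs by 1.26, 1.03 and 0.39 (adjusted p = 1.23e-04, 6.75e-06 and 0.0106), Gabre with low signal in both cells and by 0.25 without the array apart.

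Other members were lower in MEFs. Chrna7 read 5.70, 5.51 and 5.37 in MEFs, against 8.45, 6.26 and 8.41 in P19 controls, a difference of -2.18 ± 0.36 (limma adjusted p = 2.87e-05) and of -2.90 without the array apart; its other probe set differed by -0.03 (adjusted p = 0.884). Grik5, a kainate receptor subunit that needs a partner to form a channel, read 6.46, 6.70 and 6.27 in MEFs, against 8.31, 9.42 and 8.10, a difference of -2.13 ± 0.28 (adjusted p = 1.33e-06). In these genes every P19 array exceeded every MEF array. Gria4, an AMPA subunit, was lower by -1.47 ± 0.14, Gabra4 by -1.31 ± 0.33, Grm4, a metabotropic receptor that lowers transmitter release, by -1.24 ± 0.34, Chrna5 by -0.98 ± 0.29, Gabra2 by -0.91 ± 0.24 and Grin2d, an NMDA subunit, by -0.74 ± 0.30 (adjusted p from 2.49e-08 to 0.0466). The array apart moved some of these values: without it Gabra2 differed by -0.45, Gabra4 by -1.97 and Grin2d by -0.14. Chrnb4 was lower by -0.56 (adjusted p = 0.018), with low signal in both cells.

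In all, 6 members were higher in MEFs (11.5%, against 24.8% of all genes) and 17 lower (32.7%, against 26.9%). Without the array apart 7 of the 52 were higher (against 24.1%) and 12 of the 52 lower (against 31.4%), both shares below those of all genes. The calls of Grin2d, Grin2a and Grin3a, NMDA subunits, Grik2, a kainate subunit, Gabrr2 and Gabrd, GABA A subunits, and Grm2, a metabotropic receptor, ended without it. Of the 23 called members, 11 had low signal in both cells and 4 had readings that overlapped. The same shares among all called genes are not given here. Called or not, 7 of the 52 members lay wholly above and 15 wholly below in MEFs, against 25.82% and 25.83% of all genes. Fibroblast markers were all higher in MEFs and 10 of 11 neuron markers were lower, with neuron array means of 5.17 to 5.25 in MEFs against 6.87 to 8.05 in P19 controls. Of 33 auxiliary genes 4 were higher and 13 lower, among them Grip1, which binds AMPA receptors (-3.75), and Tmem35a, a chaperone of alpha7 nicotinic receptors (-2.84). Of 14 transmitter genes 0 were higher and 4 lower, and of 10 other receptor genes 2 were higher and 4 lower, or 2 and 0 without the array apart.

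**Figure D5:**
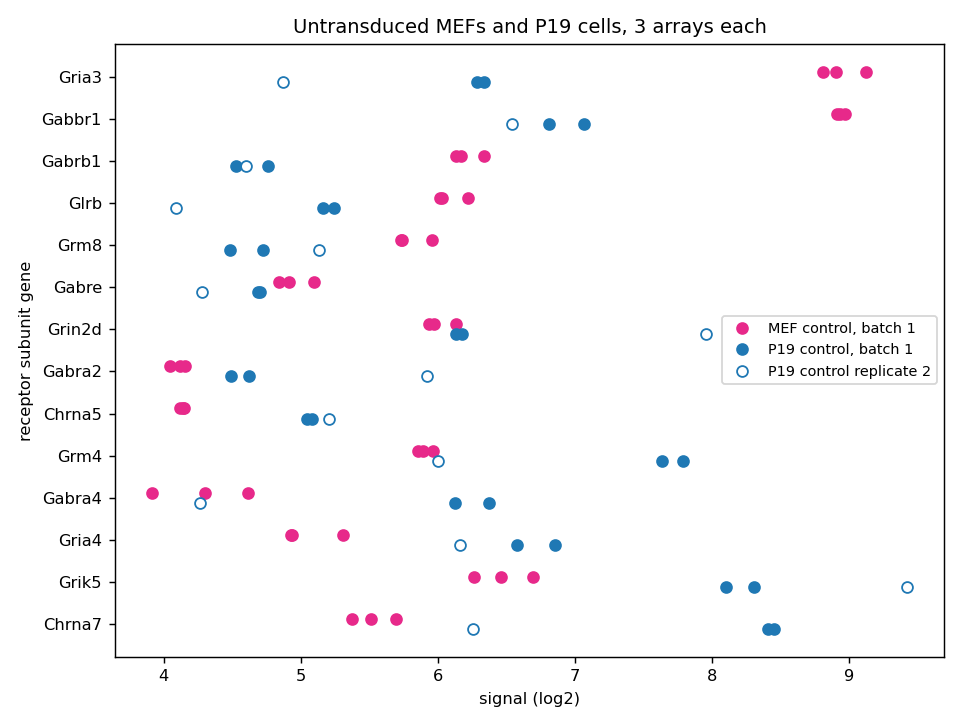
Signal (log2) of 14 receptor subunit genes in each untransduced MEF array (pink) and P19 array (blue) of batch 1, the 6 called higher in MEFs at the top and the 8 with the largest lower differences below; open points are P19 control replicate 2. For Chrna7 the open point reads 6.26, and the other P19 arrays read 8.45 and 8.41.

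The effects of a factor were then compared between cells and between factors, as differences of differences in the same fit. For NeuroD2, the effect in MEFs minus that in P19 cells was -3.07 ± 0.27 for Chrnb4 (limma adjusted p = 6.43e-08), -1.30 for Chrna3, -1.07 for Chrna4 and -0.74 for Gabbr1 (adjusted p = 0.0423, 0.00119 and 0.0449). It was 1.83 ± 0.18 for Gabrb1 (adjusted p = 3.22e-07), 1.58 for Gabra4 and 1.21 for Gabrg1 (adjusted p = 0.034 and 0.00215). The differences for Chrna5 (-1.14) and Chrna7 (1.47) did not pass with all arrays (adjusted p = 0.0988 and 0.0766). The signed difference of effects was thus positive for 3 members, against 4.53% of all genes, and negative for 4, against 5.63%; for Gabrg1 it reflects -1.05 in P19 cells and 0.16 in MEFs labelled NeuroD2. Leaving out the array apart gave 4, against 12.6%, and 6, against 12.3%, with Chrna7, Chrna5 and Grik4 added (adjusted p = 1.09e-05, 0.04997 and 0.0168). For MyoD, the effect was lower in MEFs for Gria3 (-2.25 ± 0.51, adjusted p = 0.00277), Chrna7 (-1.74, and -1.02 without the array apart), Gabrb1 (-1.08), Chrna4 (-0.70) and Gabre (-0.56), and higher for Gria2 (0.43) and Chrnb3, a nicotinic beta subunit (0.51), against 14.7% of all genes lower and 6.39% higher. With the array apart left out, 6 were lower, against 16.8%, and 3 higher, against 13.7%. The Chrnb3 call ended (0.41, adjusted p = 0.0569), and Grm8 (-0.66), Gabra2 (0.45) and Grin3a (0.48) passed.

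Within P19 cells, the NeuroD2 effect minus the MyoD effect was 3.34 ± 0.27 for Chrnb4 (limma adjusted p = 4.24e-08), 1.73 for Chrna3 (1.17 without the array apart), 1.18 for Gabbr1 and -1.70 for Gabrg1 (adjusted p = 0.0113, 0.00243 and 1.34e-04), or 3 members higher, against 2.93% of all genes, and 1 lower, against 2.6%. The counts without the array apart were again 3, against 6.45%, and 1, against 4.52%. Chrna4, which rose with each factor, differed between them by 0.23, with a 95% interval from -0.21 to 0.66 (adjusted p = 0.52). Within MEFs the effect of the group labelled NeuroD2 minus that of MyoD was 3.05 ± 0.18 for Gabrb1 (adjusted p = 5.18e-11), 2.76 for Chrna7 and 1.75 for Gria3 (adjusted p = 3.62e-04 and 0.0177). These 3 members were higher, against 10.5% of all genes, and 0 were lower, against 8.33%. At an unadjusted p under 0.05 limma marked 7 members, again without the share of all genes beside it and not read further. With the array apart left out, 6 were higher, against 19.4%, and 1 lower, against 16.3%, with Gabra4 (1.15), Grm8 (0.53) and Grm7 (0.37) higher and Chrna9 (-0.53) lower. The factors sit in different batches, each against its own controls, so batch enters these differences through both sets of controls. In MEFs, differentiation medium cannot be told apart from MyoD, and the harvest time of the group labelled NeuroD2 is not given.

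With all arrays, 14 members passed in at least 1 of the 4 factor comparisons (26.9%, against 35.2% of all genes), 4 of them in more than 1 (Chrna4, Chrna7, Gabbr1 and Gabrb1; 7.69%, against 11% of all genes), and 38 passed in none. Counting the comparison of controls and the differences of effects too, 28 members passed in that fit (53.8%, against 63.2% of all genes) and 24 did not, among them Chrnb2, Grik4, Gabra3 and Chrna9, which passed somewhere without the array apart. Their differences in the factor comparisons lay between -0.55 and 0.34, and 17 of them exceeded the olfactory percentile in no group. The 8 of these 24 with the highest mean signal were Grin3b and Grin2b, NMDA subunits, Grik4 and Grik3, kainate subunits, Chrnb2, Gabrb2, the beta2 GABA A subunit, Chrna6, a nicotinic subunit of dopamine neurons, and Gabra3. Their group means spanned 0.23 for Grik3 to 0.61 for Grin3b. Of the glycine receptor genes, Glra1, Glra2, Glra3 and Glra4, the ligand-binding alpha subunits, had low signal in every group. Of the 19 calls in the factor comparisons, 17 were of genes with more than 1 probe set. These had 32 other probe sets, of which 11 passed in the same direction, 0 in the opposite one and 21 did not pass. For the calls of Chrna5, Gabbr1, Gabrg1, Gria2 and Grm7, and of Gabrb1 with MyoD in MEFs, the other probe sets are not given one by one.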

How the data were processed

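Total RNA of 24 samples was labelled as biotinylated cRNA, per the labels' protocols, and read on 1 Affymetrix array each. The deposited values are log2 signals. Their quartiles nearly coincide on 23 of the 24 arrays; the authors' steps of background correction, normalization and probe summary are unstated in the sources used here. limma is the only tool in the submitters' processing notes, without a version. The values were used as deposited, so no depth applies, and the number of arrays limits the precision.

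Of 45101 probe sets, 34945 with a single gene symbol were reduced to 18193 genes by the highest mean. Groups came from titles and source names, because the characteristics call MyoD samples neuronal. limma 3.58.1 (R 4.3.3) fitted a mean per group to the 24 arrays together, with 16 residual and 3.89 prior degrees of freedom. The 9 comparisons, among them 4 differences of effects, were two-sided, with Benjamini-Hochberg adjustment over all genes and a threshold of 0.05. "Rose", "fell" and "passed" refer to it. The fit was tested on simulated data.

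Named were Chrnb4, Chrna3, Chrna5, the members that passed in a factor comparison, the 8 largest differences each way between controls, and the 8 never-called members with the highest mean; genes of other lists and Chrna2, Chrna9, Chrnb3 and others were named after their values were seen. Members and lists were chosen with earlier results of these data known. Samples with the same replicate number did not deviate together (correlations of -0.194 to 0.342, in no comparison all above 0.1), so the numbers were not taken as pairs. The alternatives, listed in the closing section, were another normalization, a common median, a filter on dim genes, 2 choices of probe sets, 3 other models, a replicate block, other controls and leaving out each array.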

Additional observations from a re-analysis of the deposited data

Results flagged for a closer look

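In each case the effect of a factor against same-batch controls differed between MEFs and P19 cells by a test of that difference in limma, with all arrays in the fit. For NeuroD2, MEFs minus P19 cells gave -3.07 for Chrnb4, -1.30 for Chrna3, -1.07 for Chrna4 and -0.74 for Gabbr1, and 1.83 for Gabrb1, 1.58 for Gabra4 and 1.21 for Gabrg1 (log2). The MEF side of these rests on a group in which no rise of Neurod2 RNA was measured. For MyoD, the difference was -2.25 for Gria3, -1.74 for Chrna7, -1.08 for Gabrb1, -0.70 for Chrna4, -0.56 for Gabre, 0.51 for Chrnb3 and 0.43 for Gria2. Here the P19 side includes the control array that stood apart. Of the MEF groups, differentiation medium is given only for those with MyoD. Without that array the Gria3 and Chrna7 differences were -1.77 and -1.02 (limma adjusted p = 0.00317 and 8.16e-04). Groups of 3 arrays are too small for a test of single outlying samples. No explanation of these differences was tested.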

How the results depend on the processing

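None of the 19 calls in the factor comparisons reversed its direction under an alternative run; differences that were not called were not followed. Chrnb4, Gabbr1 and Chrna4 in P19 cells with NeuroD2, Gabrb1, Gabra4 and Chrna7 in MEFs labelled NeuroD2, and Gabrb1, Grm8 and Gabbr1 in MEFs with MyoD passed in every alternative in which they were tested. Of these, Chrnb4, Gabra4 and Grm8 were taken out by the filter on dim genes and not tested there. The counts of members below are given where they moved by over 1.5 times. Apart from the members that this filter took out, the cause was not tested. Shares of all genes called moved too. They are given in parentheses, and on leaving out 1 array only where the array is named.

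Quantile normalization again gave 2 higher for MyoD in P19 cells (2.44% of all genes) and 1 for MyoD in MEFs (14.8%). It gave 1 lower in MEFs labelled NeuroD2 (9.12%), and 11 higher and 9 lower between controls (25.9% and 27.4%). The MyoD effect in MEFs minus P19 cells gave 0 higher (11.2%), and NeuroD2 minus MyoD in MEFs gave 1 lower (12.3%). A shift of each array to one median (by -0.129 to 0.149) gave 2 higher for MyoD in P19 cells (3.4%). It gave 11 lower between controls (23.3%) and 2 lower for the NeuroD2 effect in MEFs minus P19 cells (5.03%). Leaving out the dimmest genes, 4549 in number, gave 3 lower for MyoD in MEFs (18.9% of the genes kept). NeuroD2 in P19 cells gave 2 higher and 0 lower (5.98% and 4.06%), and controls gave 8 lower (31.3%). The NeuroD2 effect between cells gave 1 higher and 2 lower (5.7% and 6.72%). NeuroD2 minus MyoD in P19 cells gave 1 higher and 0 lower (3.33% and 3.46%). Fewer members were tested there, since the filter took out Chrnb4, Chrna3, Chrna5, Gabrg1, Gabra4, Gabre, Grm7 and Grm8 among others. With only the groups compared in the fit, MyoD gave 0 higher in P19 cells (0.247% of all genes) and 10 higher in MEFs (23.2%). Controls gave 5 lower (13.3%), and the MyoD effect between cells gave 0 higher and 3 lower (4.83% and 9.11%). NeuroD2 minus MyoD gave 1 higher in P19 cells (1.28%), and 6 higher and 2 lower in MEFs (23.6% and 19.6%). Array weights, whose estimation stopped before converging, gave 6 higher and 9 lower for MyoD in P19 cells (16.9% and 20.6% of all genes). They gave 9 higher for MyoD in MEFs (25.1%), and 8 higher and 2 lower for NeuroD2 in P19 cells (14.5% and 18.4%). MEFs labelled NeuroD2 gave 5 lower (23.4%), and controls gave 13 higher (32.4%). The MyoD effect between cells gave 13 higher and 9 lower (27.1% and 27.6%), and the NeuroD2 effect between cells gave 9 lower (19.2%). NeuroD2 minus MyoD gave 11 higher in P19 cells (14.4%), and 8 higher and 5 lower in MEFs (26.5% and 24.7%). A trend of the spread over signal gave 2 higher for MyoD in P19 cells (1.96%). Controls of the other batch gave 2 higher for MyoD in P19 cells (5.13%) and 2 lower for MyoD in MEFs (15.4%). With controls of batch 1, an alternative added after seeing the data, NeuroD2 gave 3 lower in P19 cells (11.4%). Chrna3 there had a limma adjusted p of 0.154, with the array apart among those controls.

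With the replicate block MyoD in MEFs gave 1 higher (10.2%) and the MyoD effect between cells gave 0 higher (5.86%). The other counts stayed within 1.5 times, and the calls of Chrna5, Gabre, Gria2 and Grm7 ended. The samples share only a number, so this is no weaker effect.

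Leaving out 1 array at a time gave ranges of higher and lower counts. These were 1 to 6 and 0 to 13 for MyoD in P19 cells, 1 to 3 and 3 to 7 for MyoD in MEFs, 3 to 7 and 1 to 1 for NeuroD2 in P19 cells, 4 to 4 and 0 to 1 in MEFs labelled NeuroD2, and 6 to 8 and 10 to 22 between controls. They were 0 to 9 and 4 to 6 for the MyoD effect between cells, 2 to 4 and 2 to 6 for the NeuroD2 effect between cells, 3 to 6 and 1 to 1 for NeuroD2 minus MyoD in P19 cells, and 3 to 6 and 0 to 1 for it in MEFs. The highest counts for MyoD in P19 cells came without P19 control replicate 1 of batch 1 (6 and 7, with 20.7% and 13% of all genes) or replicate 3 (4 and 13, with 26.6% and 16.6% of all genes), which leaves the array apart as 1 of 2 controls; without replicate 3 the MyoD effect between cells gave 9 higher, with 11.1% of all genes. The lower count for the NeuroD2 effect between cells was 2 without any one array of MEFs with MyoD, P19 cells with MyoD, MEFs labelled NeuroD2 or MEF controls of batch 1 (4.74% to 5.35% of all genes). Without P19 control replicate 2 of batch 1, NeuroD2 minus MyoD in MEFs gave 6 higher (19.4%), and without NeuroD2 replicate 2 NeuroD2 in P19 cells gave 3 higher (3.81%). Without MEF control replicate 2 of batch 1 or MyoD replicate 3, MyoD in MEFs gave 3 lower (11.8% and 12%). Without MEF control replicate 2 or 3 of batch 1 the controls gave 10 and 11 lower (22.4% and 22.7%).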

Other observations

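The untransduced controls of the same cell type also differed between batches in some members, which were picked here after their values were seen and were not tested. Gabrg1 averaged 5.06 in the P19 controls of batch 3 and 4.23 in those of batch 1, and Gria4 averaged 5.90 and 6.53. In MEFs, Gabbr1 averaged 8.18 in the controls of batch 2 and 8.94 in those of batch 1, Gria3 averaged 8.25 and 8.95, and Glrb averaged 5.69 and 6.09. In each of these genes the arrays of one batch lay wholly on one side of the other. Chrnb4 averaged 4.58 in the P19 controls of batch 3 and 5.05 in those of batch 1, again without overlap.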
